A study of Phaffia rhodozyma with 6 samples.

Results

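Transcripts of 3 genes annotated to the bypass and repair of damaged DNA were examined in the astaxanthin-producing basidiomycete yeast Phaffia rhodozyma. They are the postreplication repair protein RAD18 (CED84714), the catalytic subunit of DNA polymerase zeta (CDZ96255) and DNA polymerase IV (CDZ97716). These 3 of the 6363 genes in the authors' deposited table were taken by their identifiers, and they had been selected on their deposited log2 ratio and q-value between the conditions. Their differences are therefore a description and carry no test here. RNA came from 6 fermenter cultures on sucrose in defined medium, 3 of the strain BPAX-A1, labelled as mutagenised, and 3 of the wild-type strain CBS6938, sampled late in exponential growth. No deletion, transgene or added agent is named in the labels for either strain, and BPAX-A1 stands for 1 mutagenised line. The study asked which transcripts differ between the strains while astaxanthin forms fastest. The table calls its conditions q1 and q2 and holds 1 FPKM value (fragments per kilobase of transcript, scaled to the mapped fragments) per gene for each, over the cultures of a condition. The sources used here do not say which condition is the mutant, so every direction is that of q2 against q1. The spread between cultures and the depth of each library are unknown. Each FPKM, p-value and q-value of a single gene below is taken from the authors' deposited table.

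In budding yeast, the RING-finger ubiquitin ligase RAD18 acts with the conjugating enzyme RAD6 at replication forks stalled by damaged bases. The pair attaches ubiquitin to PCNA, the sliding clamp, and the modified clamp recruits translesion polymerases that copy across the lesion with reduced accuracy. REV1 inserts a deoxycytidine opposite a lesion and holds the other polymerases, and polymerase zeta then extends the mispaired end, a step that accounts for much of the mutagenesis caused by DNA damage. RAD5 extends the ubiquitin mark on PCNA into a chain, which directs the fork to an error-free route instead.

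The group name fits the annotation of only part of the genes. The authors' deposited table describes CDZ97716 as a family X DNA polymerase. Family X enzymes, such as POL4 of budding yeast, fill short gaps during end joining and base excision repair. They are distinct from the Y-family translesion polymerases, to which the bacterial enzyme also called DNA polymerase IV belongs. The gene is called DNA polymerase IV (family X) below and is not counted as a translesion polymerase. It is kept in the post-replication repair list of 12 genes below only because its name matched the words of that list. A further gene whose description contains the name RAD18 (CED84316) is a member of the SMC family and not the ubiquitin ligase. The authors' deposited table gives this gene 11.8 FPKM in q1 and 12.3 FPKM in q2.

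RAD18 lies on scaffold 78 from 1088352 to 1090512, a span of 2161 bases. The authors' deposited table gives it 16.1 FPKM in q1 and 177 FPKM in q2. It was thus among the less abundant transcripts in q1, at percentile 21.5 of the FPKM values, and stood at percentile 84.8 in q2. The log2 ratio of q2 over q1 was 3.46, an 11.0-fold higher value in q2. The standard error that follows from the deposited Cuffdiff p-value of 0.0018 was 1.11 on the log2 scale. The median of such errors was 0.51 over the tested genes with a p-value above the lowest deposited, 5e-05. Such an error restates the authors' test and is no measure of the spread between cultures. The authors' deposited q-value from Cuffdiff was 0.0369. RAD18 had the highest log2 ratio of the 3 genes and the least precise one. It ranked 87 from the highest among 6254 tested genes with a finite ratio.

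The catalytic subunit of DNA polymerase zeta lies on scaffold 24 from 304622 to 312364, a span of 7743 bases. The authors' deposited table gives 3.80 FPKM for q1 and 17.3 FPKM for q2. The transcript was scarce in q1, at percentile 7.17, and was still in the lower part of the range in q2, at percentile 19.3. The log2 ratio was 2.19, a 4.55-fold higher value in q2. The implied standard error was 0.69 and the deposited Cuffdiff q-value 0.0320.

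DNA polymerase IV (family X) lies on scaffold 162 from 364591 to 367041, a span of 2451 bases. For this gene the authors' deposited table lists 12.2 FPKM in q1 and 46.1 FPKM in q2. These levels correspond to percentiles 16.2 and 50.6 of all genes. Its log2 ratio of 1.92, a 3.79-fold higher value in q2, was the lowest of the 3 but had the smallest implied standard error, 0.52. Its deposited Cuffdiff q-value of 0.00705 was also the lowest of the 3.

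Among all 6272 tested genes, 347 (5.53%) had a deposited q-value below 0.05, and 229 (3.65%) were higher in q2. All 3 genes passed that threshold in the higher direction, which their choice fixes. Among the 12 genes of the post-replication repair list described below, the highest q-value inside the threshold was that of RAD18, and the next above the threshold, that of a rad5 gene (CED83673), was 0.399. The 3 genes inside the threshold were chosen on their q-values, so this gap lends the calls no weight.

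These calls rest on the deposited Cuffdiff p-values and the q-values adjusted from them. The lowest deposited p-value was 5e-05, shared by 139 tested genes. The table also gives a test statistic, a score per gene, of 2.44 for RAD18, 2.35 for polymerase zeta and 2.58 for DNA polymerase IV (family X). Read as normal deviates, an assumption made here, these scores correspond to two-sided p-values of 0.0147, 0.0186 and 0.00988. After Benjamini-Hochberg adjustment over 6254 genes they gave 0.406, 0.464 and 0.314, and 0 of the 3 genes passed 0.05. On that reading 92 genes (1.47%) passed over the whole table. The cause of the gap between the deposited p-values and the statistics was not tested.

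**Figure D1:**
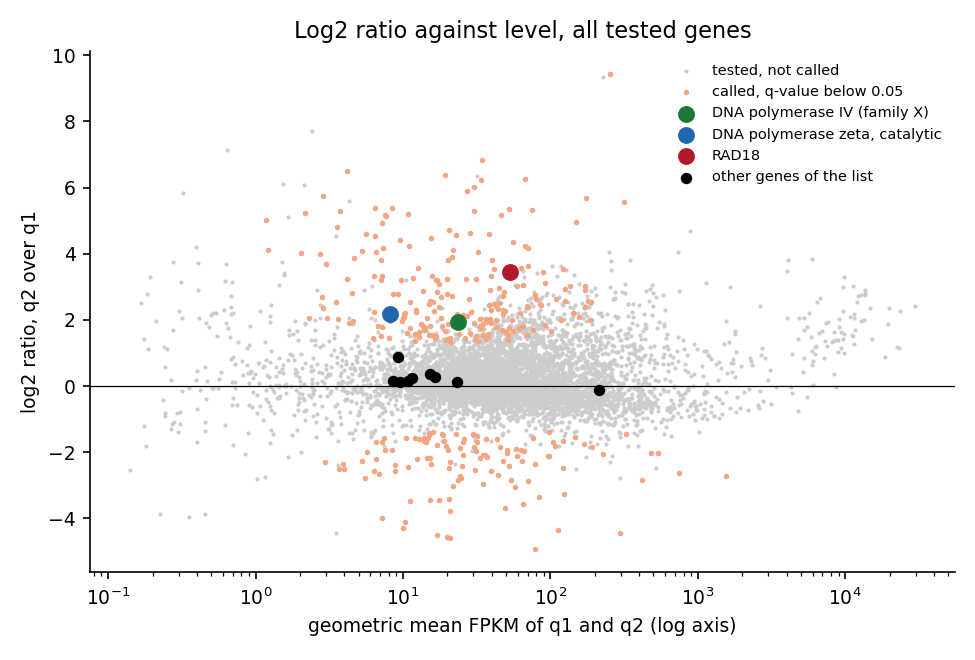
Each point is a tested gene above 0 FPKM in both conditions, with its geometric mean FPKM on a log axis and the log2 ratio of q2 over q1. RAD18 (red, 3.46), polymerase zeta (blue, 2.19) and DNA polymerase IV (green, 1.92) lie among the called genes (orange), and the 9 other genes of the post-replication repair list (black) lie between -0.13 and 0.87.

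In FPKM, a level per length, the order of the 3 genes was the same in both conditions, with polymerase zeta lowest and RAD18 highest. RAD18 stood 4.23-fold above polymerase zeta in FPKM in q1 and 10.2-fold above it in q2. It stood 1.32-fold above DNA polymerase IV (family X) in q1 and 3.83-fold above it in q2.

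Scaling between the conditions changed the sizes. The signs could not change, because each scaling shifts every gene by 1 amount, at most 1.07. All 3 deposited ratios, on which the genes were chosen, exceed that. Summed over genes, FPKM came to 1030220 for q1 and 2161510 for q2, so expressing each gene as a share of the sum (TPM) lowers every log2 ratio by 1.07. On that scale the log2 ratio was 2.39 for RAD18, 1.12 for polymerase zeta and 0.85 for DNA polymerase IV (family X). In TPM, RAD18 had 15.6 in q1 and 81.8 in q2, polymerase zeta 3.69 and 8.01, and DNA polymerase IV (family X) 11.8 and 21.3. Relative to the median gene, whose log2 ratio was 0.11, the values were 3.34, 2.08 and 1.81. Scaled to the upper quartile of FPKM, they were 3.17, 1.90 and 1.63, nearer the deposited ratios than in TPM. A pseudocount of 10 FPKM reduced polymerase zeta, the scarcest of the 3, to 0.98.

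**Figure D2:**
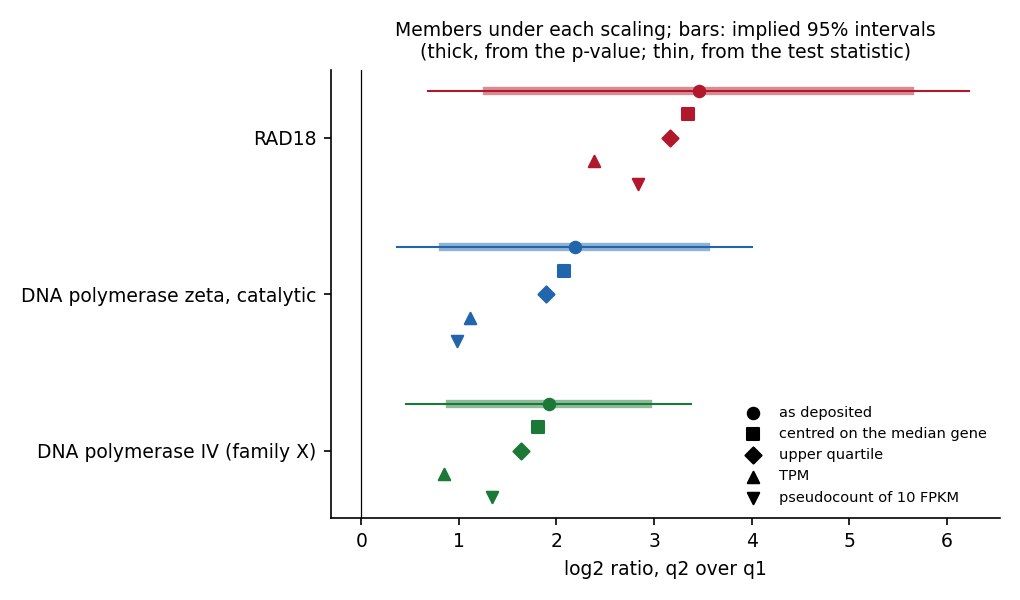
The log2 ratio of q2 over q1 is drawn for each gene as deposited and under 4 alternatives, with 95% intervals of the deposited value implied by the authors' p-value (thick bars) and by their test statistic (thin bars). All values lie above 0, which the sizes of the deposited ratios fix. The TPM values of 2.39, 1.12 and 0.85 lie below the deposited 3.46, 2.19 and 1.92.

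The rest of the post-replication repair route was described with 9 further genes matched by the words of their descriptions. Of these, 0 were called at a Cuffdiff q-value below 0.05 and 0 at an unadjusted p below 0.05. Over all tested genes, 5.53% passed the former threshold and 14.6% the latter (10.5% higher and 4.13% lower in q2). The 9 are what remains after the 3 genes chosen on their q-values were set aside, which lowers the count. With those 3 included, 3 of 12 passed either threshold. Their median log2 ratio was 0.17, beside 0.12 over all tested genes, and 8 of the 9 had a higher value in q2 as deposited, beside 57.7% of all tested genes with a finite ratio. This direction depends on scaling, since 0 of the 9 were higher in TPM, beside 16.8% of all tested genes with a finite ratio. The names RAD6, MMS2, UBC13, REV7, SRS2 and RAD30 matched 0 descriptions. Genes known by those names, among them partner enzymes of RAD18, RAD5 and polymerase zeta, are therefore not analysed here.

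PCNA, the clamp that RAD18 modifies in budding yeast, was the most abundant gene of the list. Proliferating cell nuclear antigen (CDZ97698, scaffold 162, 295948 to 298037) stands at 225 FPKM in q1 and 206 FPKM in q2 of the authors' deposited table. Its log2 ratio was -0.13 (implied standard error 0.60, Cuffdiff q 0.968). The FPKM of PCNA was 14.0 times that of RAD18 in q1 and 1.16 times that of RAD18 in q2. For polymerase zeta the same ratio of levels was 59.1 in q1 and 11.9 in q2.

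The 4 genes described as REV1 or DNA polymerase iota, translesion polymerases of the Y family, had nearly equal deposited FPKM values in both conditions. Their values were lower in q2 once expressed in TPM. The longer gene described as the REV1 deoxycytidyl transferase (CDZ97273, scaffold 79, 1816620 to 1822798) had 8.07 and 9.05 FPKM in the authors' deposited table, a log2 ratio of 0.17 and an implied standard error of 0.43. The shorter gene with that description (CDZ98168, scaffold 242, 154437 to 155722) had 10.2 and 11.3 FPKM, a log2 ratio of 0.14. Of the genes described as DNA polymerase iota, a further lesion-bypass enzyme, CED82677 on scaffold 52 had 9.12 and 9.90 FPKM and CDZ97941 on scaffold 162 had 22.2 and 24.1 FPKM. Both had a log2 ratio of 0.12. In TPM the log2 ratios of the 4 genes ran from -0.95 to -0.90, close to the median of -0.95 over all tested genes. Deposited Cuffdiff q-values of these 4 genes ran from 0.928 to 0.957. Polymerase zeta, which extends what REV1 has begun in budding yeast, had 0.471 times the FPKM of the longer REV1 gene in q1 and 1.91 times its FPKM in q2.

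Genes described as rad5, the ligase of the error-free branch, numbered 3. The first (CED83673, scaffold 69, 434529 to 437764) stands at 6.85 FPKM in q1 and 12.5 FPKM in q2 of the authors' deposited table, a log2 ratio of 0.87 with an implied standard error of 0.48. Its neighbour (CED83674, 437858 to 441244) had 10.7 and 12.5 FPKM, a log2 ratio of 0.24. A rad5 gene on scaffold 79 (CDZ96852) had 13.5 and 17.3 FPKM, a log2 ratio of 0.36 (deposited q 0.815). These genes share a description, and whether reads were divided between similar copies was not tested. The last gene of the list, a predicted DNA damage inducible protein (CED84193), had 14.9 and 18.0 FPKM in the deposited table, a log2 ratio of 0.28.

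**Figure D3:**
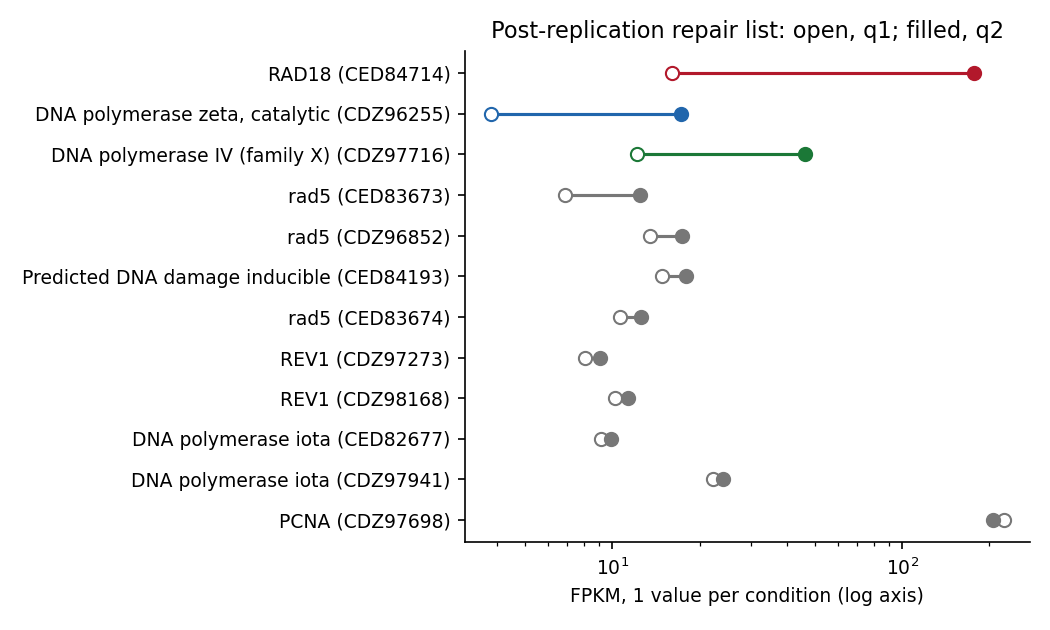
For each of the 12 genes of the post-replication repair list, the open circle is the FPKM value of q1 and the filled circle that of q2, on a log axis, with 1 value per condition and no error bar. RAD18 spans 16.1 to 177, polymerase zeta 3.80 to 17.3 and DNA polymerase IV 12.2 to 46.1, while the REV1, iota and PCNA pairs of circles nearly coincide on this deposited scale.

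Within this list of 12, polymerase zeta had the lowest FPKM in q1 and the sixth from the lowest in q2. RAD18 moved from rank 10 to rank 11, next below PCNA, and DNA polymerase IV (family X) from rank 7 to rank 10.

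The other DNA polymerases and the primase, 13 genes, had a median log2 ratio of 0.13. Of these, 0 were called at a Cuffdiff q-value below 0.05, beside 5.53% of all tested genes. The highest log2 ratio was that of polymerase epsilon subunit D (CDZ96960), at 144 and 796 FPKM in the authors' deposited table, a log2 ratio of 2.47 with an implied standard error of 2.21 (deposited q 0.680). The lowest was that of the epsilon DNA polymerase (CED83236), a replicative enzyme, with 123 and 36.5 FPKM and a log2 ratio of -1.75 (implied standard error 0.68, q 0.123). It was the only gene of this list with an unadjusted p below 0.05. In budding yeast polymerase zeta borrows accessory subunits from polymerase delta. The regulatory subunit of polymerase delta (CED83110) had 21.9 and 22.8 FPKM and the subunit Cdc27 (CED84104) 20.9 and 20.9 FPKM in the deposited table. Both were named here after their values were seen.

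Clamp loaders and the checkpoint clamp that senses damage were represented by 6 genes. Of these, 1 was called higher and 0 lower, beside 3.65% and 1.88% of all tested genes. The large subunit of replication factor C (CED84456), which loads PCNA onto DNA, had 9.88 and 34.7 FPKM in the authors' deposited table. Its log2 ratio was 1.81 with an implied standard error of 0.58 (Cuffdiff q 0.0353). The lowest was HUS1 (CDZ97840), a component of the checkpoint clamp, with 107 and 42.8 FPKM and a log2 ratio of -1.33 (implied standard error 0.47, deposited q 0.0738). The list median was 0.25.

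Base excision repair, in which family X polymerases fill gaps, had 6 genes with 0 called, beside 5.53% of all tested genes. At an unadjusted p below 0.05, 2 were higher, beside 10.5% of all tested genes. All 6 had higher FPKM values in q2, beside 57.7% of all tested genes with a finite ratio, and their median log2 ratio was 0.90. In TPM 1 of the 6 was higher, beside 16.8% of those genes. That gene was the highest of the list, a thymine DNA glycosylase specific for G/T mismatches (CED84604), with 5.49 and 17.4 FPKM per the deposited table (log2 ratio 1.67, implied standard error 0.57, q 0.0606). The lowest was the A/G-specific adenine DNA glycosylase (CDZ97659), with 16.9 and 22.8 FPKM (log2 ratio 0.44). Recombination and end joining, the other setting of family X enzymes, had 16 genes with 0 called, beside the same 5.53%, and a median of 0.24. Its range ran from -0.53 for DMC1 (CED84399), the meiotic strand-exchange ATPase, to 0.97 for rad52 (CDZ97721), the recombination mediator. Of the end-joining proteins, picked after their values were seen, the Ku80 subunit (CED82830) had 18.3 and 26.6 FPKM, the ku70-like gene (CED85168) 23.4 and 19.5 FPKM and DNA ligase 4 (CED85204) 8.94 and 9.87 FPKM in the deposited table.

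In mismatch repair 1 of 9 genes was called, beside 5.53% of all tested genes. It was the MLH3 family gene (CDZ97281), with 7.68 and 25.0 FPKM per the deposited table (log2 ratio 1.70, implied standard error 0.46, Cuffdiff q 0.00857). The lowest of that list was the exo1-related exonuclease (CED83180), with a log2 ratio of -0.34, and the list median was 0.12. Nucleotide excision repair had 0 of 16 genes called and a median of 0.00, from -0.67 for the CDK7 kinase subunit of TFIIH (CED82239) to 1.30 for rad16 (CDZ98578). The checkpoint kinases atr (CDZ97128, log2 ratio 0.56) and chk1 (CED84833, 0.47) were not called. Deoxynucleotide supply had 0 of 5 genes called, from -0.31 for the alpha subunit of ribonucleotide reductase (CED83798) to 0.53 for dUTP pyrophosphatase (CDZ98483).

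Over these 8 related lists together, 2 of 73 genes were called higher and 0 lower by Cuffdiff, beside 3.65% and 1.88% of all tested genes. Their median log2 ratio was 0.23, and 54 of the 73 had higher values in q2 as deposited but 6 of the 73 in TPM, beside 57.7% and 16.8% of all tested genes.

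**Figure D4:**
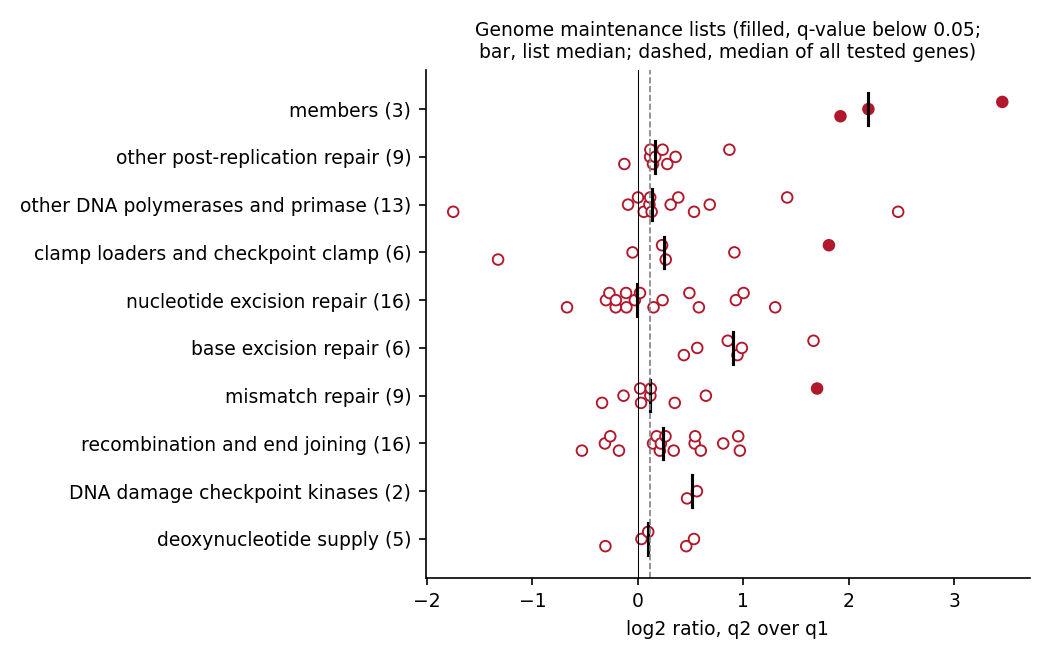
Each circle is the log2 ratio of q2 over q1 of 1 gene, by list, with the number of genes in parentheses. Filled circles have a deposited q-value below 0.05, black bars are list medians and the dashed line is the median of all tested genes, 0.12. Beside the 3 chosen genes, filled circles appear for replication factor C subunit RFC1 (1.81) and MLH3 (1.70).

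The genes next to the 3 loci were read to place each value beside those of its surroundings. RAD18 has a family 25 glycosyl transferase gene (CED84713) 567 bases before it, at 5.18 and 6.11 FPKM in the authors' deposited table, and a gene with an immunoglobulin E-set domain (CED84715) 1067 bases after it, with 12.7 and 11.1 FPKM. Their log2 ratios were 0.24 and -0.19, and neither was called. Further out, within 4 genes on either side and named after their values were seen, the hypothetical protein genes CED84711 (log2 ratio 3.23) and CED84712 (1.98) were called higher. The WDR8 gene (CED84716, log2 ratio 1.36, q 0.355) and an acyl-dehydrogenase gene (CED84717, log2 ratio 1.34, q 0.0589) were not called. DNA polymerase IV (family X) lies between a predicted antiporter (CDZ97715, log2 ratio 0.81, q 0.377) at 294 bases and a CHORD domain gene (CDZ97717, log2 ratio -0.16) at 350 bases. Polymerase zeta differed from these in that 1 adjacent gene was called. An EF-hand gene (CDZ96256, scaffold 24, 312617 to 313991), 252 bases away, had 51.7 and 309 FPKM in the deposited table, a log2 ratio of 2.58 (Cuffdiff q 0.00226). On its other side, at 1695 bases, a phospholipid-translocating ATPase (CDZ96254) had 41.0 and 62.5 FPKM, a log2 ratio of 0.61 (q 0.761). Called genes further out were not particular to RAD18. Within 4 genes of polymerase zeta, CDZ96253 (log2 ratio 2.09) and CDZ96258 (-4.30) were called, and near DNA polymerase IV (family X), CDZ97720 (2.41). The libraries came from a stranded kit, but the sources used here do not say whether counting used strand. Any part of reads from the EF-hand transcript in the value of polymerase zeta was not tested.

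**Figure D5:**
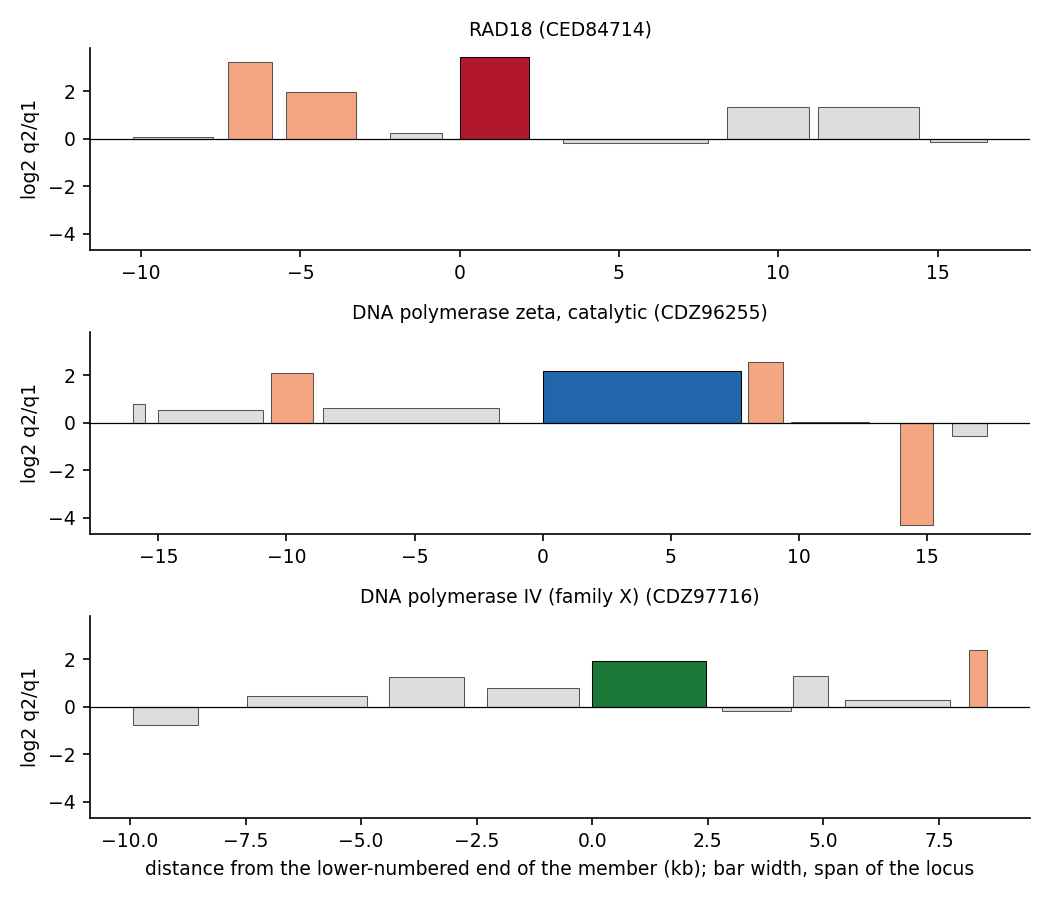
Bars show the log2 ratio of q2 over q1 of each of the 3 genes (colour) and of the 4 annotated genes on either side, against distance in kilobases from the member's lower-numbered end, with bar width equal to the span of the locus. Orange bars are genes with a deposited q-value below 0.05 and grey bars the others. The genes immediately beside RAD18 are near 0 while 2 genes further out are orange. Orange bars further out also appear around polymerase zeta and DNA polymerase IV.

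By level in both conditions, the genes most like each of the 3 were taken as the nearest described genes in log2(FPKM + 1) over the 2 conditions. For RAD18 these were an NAD(P)-binding domain gene (CDZ96434, 18.3 and 218 FPKM), an Mss4-like gene (CDZ96974, 20.7 and 169 FPKM) and a mitochondrial carrier (CDZ96731, 19.7 and 219 FPKM), at distances of 0.348 to 0.410. Their deposited Cuffdiff q-values were 0.00226, 0.00226 and 0.0957, so the carrier was not called. For polymerase zeta they were an alpha-L-fucosidase (CED84345, Cuffdiff q 0.00424), a family 2 glycoside hydrolase (CED84166, q 0.00226) and a BRCT domain gene (CDZ96253). The BRCT domain gene had 4.89 and 20.8 FPKM in the authors' deposited table (q 0.0220) and lies 8962 bases from polymerase zeta on scaffold 24. For DNA polymerase IV (family X) the nearest were a mandelate racemase domain gene (CED85325), a GNAT domain gene (CED82491) and a methyltransferase (CED83176), at distances of 0.0630 to 0.132. Their deposited Cuffdiff q-values were 0.143, 0.0155 and 0.0443, so the mandelate racemase domain gene was not called. Likeness over 2 values is a statement about level only.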

How the data were processed

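RNA sequencing of 6 cultures was analysed from the authors' deposited table. Per the submitters' processing notes, the tools were FastQC and Trimmomatic, then TopHat, Cufflinks and Cuffdiff. The sources used here give no version, genome build, annotation or normalization between libraries, so loci are on numbered scaffolds without exon detail, and printed starts are the file's plus 1. Per the file headers, the table gives FPKM per condition, the log2 ratio, a test statistic (a score), a p-value and a q-value. Values per culture numbered 0, so no replicate test, block or leave-one-out fit was possible.

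Genes and lists were chosen with earlier results of these data known. Called means a deposited q-value below 0.05. Lists were matched by words in the descriptions, and 8 unrelated entries were removed by annotation. Named genes are the 3 members, the post-replication repair list, the highest, lowest and called gene of each related list, adjacent genes and the 3 nearest in level; exceptions are stated. Implied standard errors are the log2 ratio over the normal quantile of the p-value. Benjamini-Hochberg code was checked on simulated data. Python 3.11.15, pandas 2.3.3 and scipy 1.17.1 were used. Alternatives covered pseudocounts, scalings, thresholds and filters.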

Additional observations from a re-analysis of the deposited data

How the results depend on the processing

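Of 15 alternative log2 ratios of the 3 genes, 4 moved by more than the implied standard error, and of 20 alternative counts 9 moved by over 1.5 times. The sign of the log2 ratio changed in 0 of them, and it could not have changed. A pseudocount keeps the sign, and the 9 rescaled values are shifts of at most 1.07. All 3 deposited ratios, on which the genes were chosen, exceed that shift. The log2 ratio of RAD18 ran from 2.39 (TPM) to 3.38 (pseudocount of 1 FPKM) and stayed within its implied standard error. A pseudocount of 10 FPKM gave 0.98 for polymerase zeta and 1.34 for DNA polymerase IV (family X), and TPM gave 1.12 and 0.85. The post-replication repair list held 3 called genes, with DNA polymerase IV (family X) among them by its name alone. At a q-value below 0.01, 1 of these was called, DNA polymerase IV (family X). With the p-value of the test statistic, an alternative chosen after seeing the data, 0 were called. Over all tested genes, 347 calls became 192 at a q-value below 0.01, 916 at an unadjusted p below 0.05 and 92 with the p-value of the test statistic. For the related lists, 2 calls became 1 at a q-value below 0.01, 4 at a q-value below 0.10, 8 at an unadjusted p below 0.05 and 0 with the test statistic, all added after seeing the data. The stricter and looser thresholds change the counts by construction. Filters on low values and lists as matched left the counts within 1.5 times. No paired analysis was possible because the table holds no values per culture. The precision that depth sets is unknown, since no counts are given.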

Other observations

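Windows of 4 genes on either side of each locus were counted after the values were seen. Around polymerase zeta 3 of 8 genes were called in the authors' deposited table, 2 higher and 1 lower in q2. The lower one was a hypothetical protein gene (CDZ96258) with 44.2 and 2.25 FPKM, a log2 ratio of -4.30. Around RAD18 2 of 8 were called, both higher, the hypothetical protein genes CED84711 (1.37 and 12.9 FPKM, log2 ratio 3.23) and CED84712 (4.14 and 16.3 FPKM, log2 ratio 1.98). Around DNA polymerase IV (family X) 1 of 8 was called, the hypothetical protein gene CDZ97720 (18.7 and 99.1 FPKM, log2 ratio 2.41). For 309 other called genes with 8 such neighbours, 40.1% had 1 or more called among them, 12.6% had 2 or more and 0.647% had 3 or more. Among 5831 genes that were not called, these shares were 32.5%, 6.26% and 1.11%.

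The deposited p-value was smaller than the normal p-value of the deposited test statistic for 6136 of 6254 genes. Among called genes the median ratio of the latter to the former was 19.2. Of the 92 genes that passed 0.05 on the test statistic, 85 were among the 347 called by the deposited q-value. RAD18, polymerase zeta and DNA polymerase IV (family X) were not among them. Which of the columns better describes the spread between cultures was not tested, because values per culture are not analysed here.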
